A study of Mus musculus with 16 samples.

Results

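Transcripts of the MHC class I antigen presentation pathway were examined in mouse brain cortex through 10 genes: the light chain B2m, the heavy chains H2-K1, H2-D1 and H2-T23, the peptide transporter subunits Tap1 and Tap2, the loading factor Tapbp, the immunoproteasome subunits Psmb8 and Psmb9, and the transcriptional activator Nlrc5. They were taken by gene symbol from a count table of 55385 genes, and all 10 were among the 17555 genes with enough counts to be tested. The polyadenylated RNA came from 16 mice at 9 months of age, with 2 females and 2 males in each of 4 groups. The 5xFAD-Dp16 mice carried both genotypes, the 5xFAD mice the amyloid transgenes alone, the Dp16 mice the duplication alone, and the wild-type mice, of the C57BL/6J strain, carried neither. The 5xFAD transgenes are human genes with familial Alzheimer's disease mutations under the neuronal Thy1 promoter, so the mice overproduce amyloid-beta from neurons and form plaques. Dp16 mice carry an extra copy of a distal segment of mouse chromosome 16 and serve as a model of Down syndrome. None of the 10 genes lies on that chromosome.

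MHC class I molecules display peptides of the cell's own proteins at the cell surface, where CD8 T cells and natural killer cells read them. The immunoproteasome cuts proteins into peptides, the Tap1-Tap2 transporter carries these into the endoplasmic reticulum, tapasin (Tapbp) holds empty heavy chains at the transporter until a peptide binds, and B2m stabilises the heavy chain. Interferons raise most of these genes together, in part through Nlrc5, which acts at class I promoters. In the brain, microglia and endothelial cells express class I molecules, and neurons do so at low levels that have been tied to synapse remodelling.

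Library totals were 16874481 to 22912168 counts. Thy1, whose promoter drives the transgenes, stood at 1835 to 2205 CPM (counts scaled to library size with TMM factors) in 5xFAD-Dp16, 1542 to 1988 in 5xFAD, 767 to 1051 in Dp16 and 736 to 880 in wild-type, so libraries with and without the transgenes did not overlap. Dyrk1a, a kinase gene on the duplicated segment, stood at 93.0 to 125 CPM in 5xFAD-Dp16, 65.9 to 73.9 in 5xFAD, 101 to 115 in Dp16 and 60.1 to 86.8 in wild-type. Markers of neurons summed to 8058 to 9762 CPM in 5xFAD-Dp16, 7829 to 8211 in 5xFAD, 8946 to 10650 in Dp16 and 9299 to 9847 in wild-type. The 5xFAD range thus lay below those of Dp16 and wild-type. Summed levels of lists are in CPM by library total alone, without TMM factors. Wild-type replicate 3 stood apart in how expression depended on gene length (slope -0.439 log2 units per doubling of length, against -0.181 to 0.281 in the other 15 libraries), and the members' results are given with that slope as a covariate as well. The labels name separate samples but no litters or extraction batches, so the p-values measure the spread between these 16 libraries.

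All members but B2m and Nlrc5 lie in the major histocompatibility complex on chromosome 17 (GRCm38). The coordinates are those of the GENCODE M21 annotation, while the title of the count table names GENCODE M24. The heavy chain genes are H2-K1 (ENSMUSG00000061232, chr17:33996017-34000347, minus strand), H2-D1 (ENSMUSG00000073411, chr17:35262730-35267499, plus strand) and H2-T23 (ENSMUSG00000067212, chr17:36029773-36032855, minus strand). Psmb9 (ENSMUSG00000096727, chr17:34181987-34187764, minus strand), Tap1 (ENSMUSG00000037321, chr17:34187553-34197225, plus strand), Psmb8 (ENSMUSG00000024338, chr17:34197721-34201454, plus strand) and Tap2 (ENSMUSG00000024339, chr17:34203527-34216321, plus strand) follow one another, and Tapbp (ENSMUSG00000024308, chr17:33915899-33929292, plus strand) lies apart from them. B2m is on chromosome 2 (ENSMUSG00000060802, chr2:122147686-122153083, plus strand) and Nlrc5 on chromosome 8 (ENSMUSG00000074151, chr8:94434356-94527272, plus strand). Tap1 and Psmb9 overlap on opposite strands, and Tapbp overlaps Zbtb22 on the same strand. How reads from these shared stretches were counted is not given, so the counts of these genes are less certain. The H2 heavy chain genes are also close in sequence to each other, and the sources used here do not say how reads that fit several of them were counted.

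The promoters of the members that were higher in both groups with the transgenes than in wild-type mice are given here with that of H2-T23, the heavy chain that was not called. Each line gives the 250 bases before the RefSeq transcription start (GRCm38.p6), 5′ to 3′ on the strand of the gene. Capitals mark every match, on either strand, to the core of an interferon regulatory factor element (AANNGAAA), to a kB element bound by NF-kB (GGGNNTTCC), to the X2 box (TGACG) or to the Y box (CCAAT). The X2 and Y boxes are parts of the module at which Nlrc5 acts.
B2m (chr2:122147437-122147686, plus strand): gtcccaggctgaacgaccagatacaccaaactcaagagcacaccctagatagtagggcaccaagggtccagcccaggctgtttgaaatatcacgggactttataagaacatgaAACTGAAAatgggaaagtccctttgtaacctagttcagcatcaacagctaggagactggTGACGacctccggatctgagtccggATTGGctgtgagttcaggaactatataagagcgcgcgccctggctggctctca
H2-K1 (chr17:34000348-34000597, minus strand): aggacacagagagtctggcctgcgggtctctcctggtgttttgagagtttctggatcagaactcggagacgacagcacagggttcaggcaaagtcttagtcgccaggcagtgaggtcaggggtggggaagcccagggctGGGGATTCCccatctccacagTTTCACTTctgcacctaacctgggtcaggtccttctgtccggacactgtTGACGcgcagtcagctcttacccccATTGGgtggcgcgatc
H2-D1 (chr17:35262844-35263093, plus strand): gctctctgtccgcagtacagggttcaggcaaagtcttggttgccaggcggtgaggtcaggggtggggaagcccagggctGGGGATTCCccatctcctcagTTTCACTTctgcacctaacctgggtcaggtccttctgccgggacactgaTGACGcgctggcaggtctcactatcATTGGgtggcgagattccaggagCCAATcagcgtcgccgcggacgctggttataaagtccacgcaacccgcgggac
H2-T23 (chr17:36032702-36032951, minus strand): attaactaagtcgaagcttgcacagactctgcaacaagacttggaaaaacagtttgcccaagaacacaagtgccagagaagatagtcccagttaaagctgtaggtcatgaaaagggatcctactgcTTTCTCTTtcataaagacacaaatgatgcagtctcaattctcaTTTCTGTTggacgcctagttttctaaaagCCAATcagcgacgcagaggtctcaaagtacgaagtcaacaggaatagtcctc
Tap1 (chr17:34187306-34187555, plus strand): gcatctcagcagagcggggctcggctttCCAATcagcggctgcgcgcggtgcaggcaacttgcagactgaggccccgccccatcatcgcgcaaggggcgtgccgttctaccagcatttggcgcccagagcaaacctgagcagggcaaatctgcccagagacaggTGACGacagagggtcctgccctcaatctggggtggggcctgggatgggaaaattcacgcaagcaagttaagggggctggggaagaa

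A promoter sequence was matched for 8 of the 10 members, all but Tap2 and Nlrc5. The H2-K1 and H2-D1 promoters held the same 4 kinds of letters in the same order. The kB match began 111 bases before the start in H2-K1 and 171 in H2-D1, the interferon regulatory factor match 90 and 150 bases before it, and the X2 match 41 and 101 bases before it. Over the 190 bases that can be laid side by side, 166 (87.4%) were identical. The shift that lines the sequences up equals the offset between these distances, so the distances depend on the start listed for each gene. The first listed start of each gene was used. In windows of 250 bases before to 50 after the start, the interferon regulatory factor letters were in 4 of the 8 members (B2m and the 3 heavy chains), against 24.2% of 27025 promoters. The kB letters were in 2 members, against 5.72% of promoters. An X2 match together with a Y match was found in 5 members (B2m, H2-K1, H2-D1, Tap1 and Psmb9), against 8.05% of promoters. In B2m, H2-K1 and H2-D1 an X2 match began 78, 41 and 101 bases before the start. A Y match followed it, beginning 53, 16 and 76 bases before the start. In Tap1 the order was the reverse, with the Y match at 222 bases and the X2 match at 86. The Tap1 and Psmb9 windows share 275 bases, since these genes start 226 bases apart on opposite strands, so both hold the same X2 and Y letters. The Psmb8 window held none of the 4, and Tapbp held only Y matches. A match is a stretch of letters and not a measured binding site.

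In 5xFAD against wild-type mice, 5 of the 10 genes were called higher (B2m, H2-D1, H2-K1, Tap1 and Psmb8), at 2.78 to 5.02 times the wild-type level, and the other 5 also had fold changes above 1. A gene was called where its Benjamini-Hochberg adjusted p, from edgeR's quasi-likelihood test over all 17555 genes with sex as a covariate, was under 0.05, and every adjusted p below is from that test unless another is named. Of all genes tested, 1.5% were called higher in this comparison. The members' median log2 fold change was 1.61, beside -0.05 for all genes. In 5xFAD-Dp16 against wild-type mice 4 members were called higher (B2m, H2-D1, H2-K1 and Tap1; 0.496% of all genes), and in 5xFAD-Dp16 against Dp16 mice 2 were (B2m and H2-D1; 0.387% of all genes), with median log2 fold changes of 1.30 and 1.01 beside -0.04 and 0.01 for all genes. The first pair of comparisons shares the wild-type libraries and the last pair shares the 5xFAD-Dp16 libraries, so these counts are not independent. When only the libraries of the 2 groups compared were fitted, 2 members (B2m and H2-D1) were called in 5xFAD against wild-type (0.698% of all genes), 0 in 5xFAD-Dp16 against wild-type (0.055%) and 3 in 5xFAD-Dp16 against Dp16 (0.264%). Because whole cortex was sequenced, more cells of a type and more RNA per cell cannot be told apart.

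**Figure D1:**
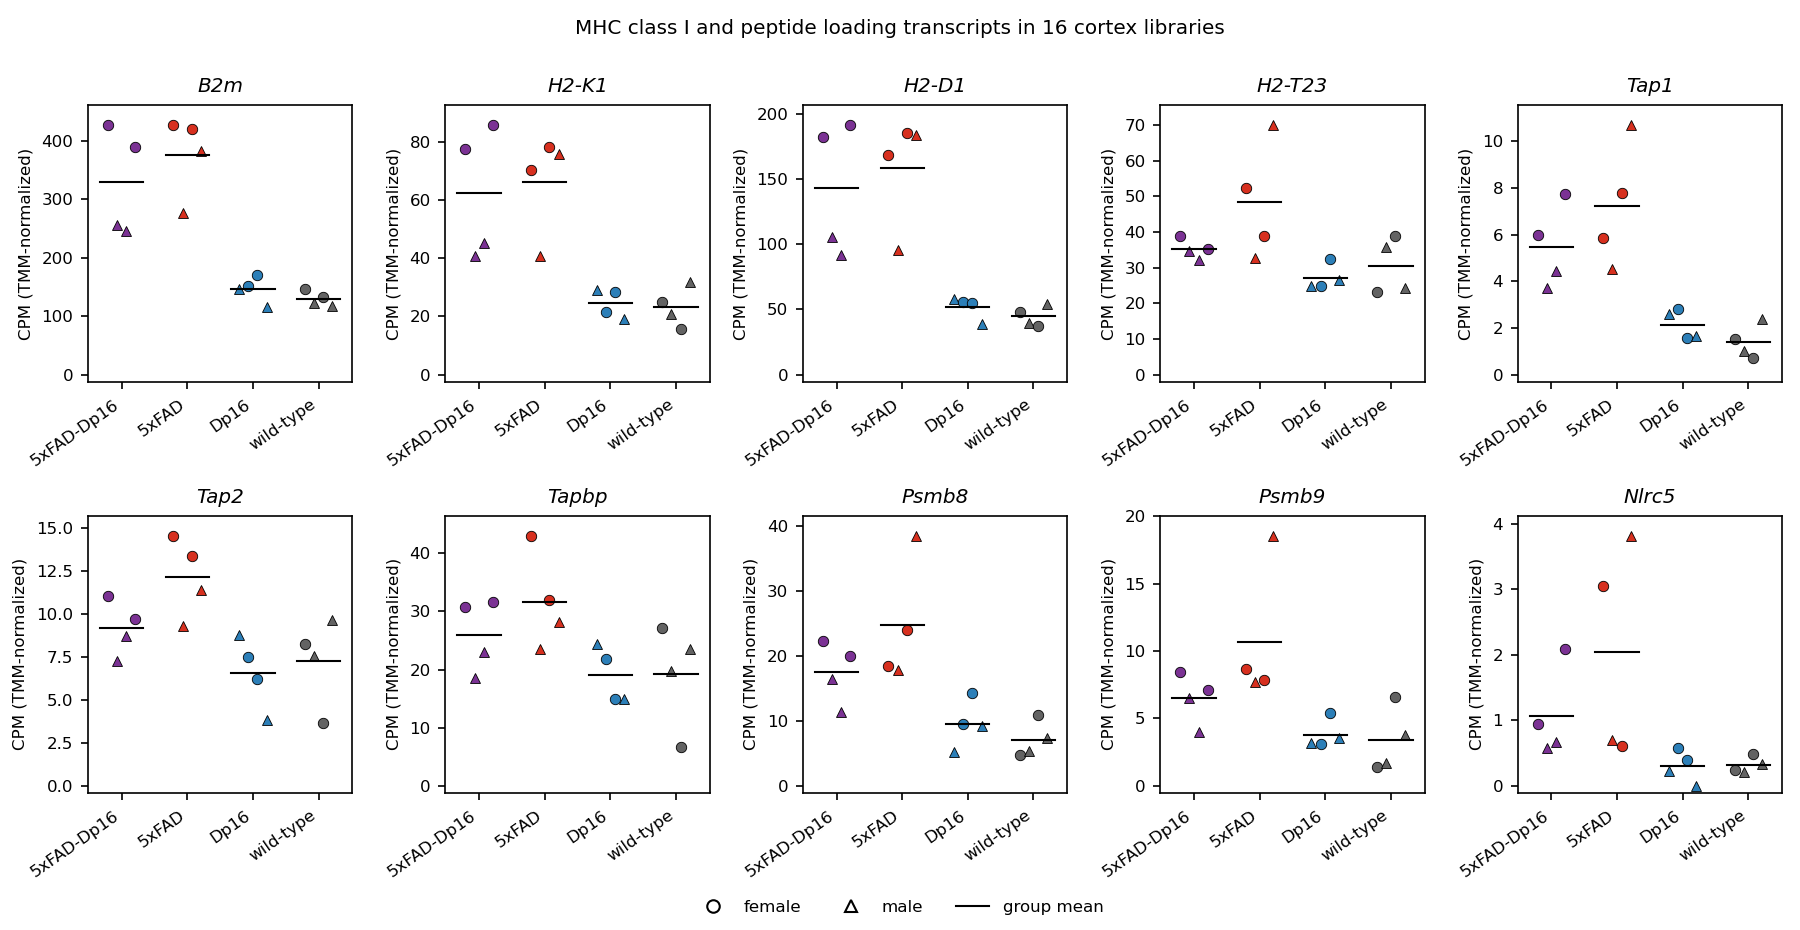
Level of each gene in each of the 16 libraries, in TMM-normalized CPM (vertical axis, from 0), by genotype (horizontal axis), with circles for females, triangles for males and a line at the group mean. B2m, H2-K1, H2-D1 and Tap1 show no overlap between the 8 libraries with the transgenes on the left and the 8 without them on the right, nor does Nlrc5 by a margin of 0.582 against 0.578 CPM, while Tap2, Tapbp and H2-T23 overlap.

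B2m, the light chain shared by all class I molecules, had the highest level of the members, in CPM and per transcript length. It stood at 428, 256, 245 and 389 CPM in the 5xFAD-Dp16 libraries (replicates 1 to 4) and at 427, 277, 420 and 382 CPM in 5xFAD. The Dp16 libraries had 147, 153, 170 and 115 CPM and the wild-type libraries 147, 123, 134 and 117 CPM. Every library with the transgenes was above every library without them. The log2 fold change was 1.52 ± 0.15 (SE) in 5xFAD against wild-type (adjusted p = 7.98e-05), 1.31 ± 0.15 in 5xFAD-Dp16 against wild-type (adjusted p = 0.000651) and 1.15 ± 0.15 in 5xFAD-Dp16 against Dp16 (adjusted p = 0.00253), with n = 4 in each group under edgeR. B2m was called in each of these 3 comparisons whichever library was left out.

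H2-D1, a classical heavy chain that presents peptides to CD8 T cells, followed the same order of groups. Its levels were 182, 106, 91.8 and 192 CPM in 5xFAD-Dp16 and 168, 95.9, 185 and 184 CPM in 5xFAD. They were 58.3, 55.7, 55.0 and 39.0 CPM in Dp16 and 47.7, 39.8, 37.1 and 54.0 CPM in wild-type. No library with the transgenes overlapped one without them, and 1 male 5xFAD library and both male 5xFAD-Dp16 libraries were the low ones of their groups. On the log2 scale the fold change was 1.80 ± 0.24 in 5xFAD against wild-type (adjusted p = 0.000840), 1.62 ± 0.24 in 5xFAD-Dp16 against wild-type (adjusted p = 0.00498) and 1.42 ± 0.24 in 5xFAD-Dp16 against Dp16 (adjusted p = 0.0142 by edgeR). The last of these calls ended without any 1 of 5 libraries (Dp16 replicates 2, 3 and 4 and 5xFAD-Dp16 replicates 1 and 4), with an adjusted p of 0.0948 without Dp16 replicate 2.

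H2-K1, the other classical heavy chain of these mice, was lower than H2-D1 per transcript length in every library. It stood at 77.5, 40.9, 45.3 and 85.8 CPM in 5xFAD-Dp16, and at 70.2, 40.9, 78.0 and 75.9 CPM in 5xFAD. The values were 29.0, 21.4, 28.5 and 19.2 CPM in Dp16 and 24.97, 20.8, 15.6 and 31.9 CPM in wild-type. Again the groups with and without the transgenes did not overlap, although the lowest 5xFAD library and the highest wild-type library were near each other. Its log2 fold change came to 1.48 ± 0.28 in 5xFAD against wild-type (adjusted p = 0.0102), 1.37 ± 0.28 in 5xFAD-Dp16 against wild-type (adjusted p = 0.0417) and 1.31 ± 0.28 in 5xFAD-Dp16 against Dp16 (adjusted p = 0.0608 by edgeR, not called). The last of these was called without wild-type replicate 3 (adjusted p = 0.0105) or wild-type replicate 4 (adjusted p = 0.0438), which enter through the shared estimate of the spread and of the sex term. The 5xFAD-Dp16 against wild-type call rested on the full set of libraries, since it ended when any 1 of 13 was left out (adjusted p = 0.196 without wild-type replicate 1). In 5xFAD against wild-type it ended without 5xFAD replicate 4 or wild-type replicate 1 (adjusted p = 0.0511 in either case). Within a library, H2-D1 was 1.75 ± 0.02 times H2-K1 in RPKM (reads per kilobase of transcript, scaled to library size) in 5xFAD, against 1.45 ± 0.21 times in wild-type (SD, n = 4 each), and the ranges overlapped.

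H2-T23 encodes Qa-1, a nonclassical heavy chain that presents leader peptides of other class I molecules to natural killer cell receptors. Its levels were 38.8, 34.8, 32.1 and 35.4 CPM in 5xFAD-Dp16 and 52.3, 32.8, 38.8 and 70.2 CPM in 5xFAD. They were 24.99, 25.01, 32.5 and 26.6 CPM in Dp16 and 23.2, 36.0, 38.9 and 24.3 CPM in wild-type. The groups overlapped, with wild-type replicates 2 and 3 inside the range of the libraries with the transgenes. On the log2 scale the fold change was 0.67 ± 0.23 in 5xFAD against wild-type (adjusted p = 0.315), 0.21 ± 0.23 in 5xFAD-Dp16 against wild-type and 0.37 ± 0.23 in 5xFAD-Dp16 against Dp16, none of them called.

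Of the transporter subunits, Tap1 was called higher and Tap2 was not. Tap1, at 5.97, 3.71, 4.42 and 7.75 CPM in 5xFAD-Dp16 and 5.86, 4.54, 7.77 and 10.7 CPM in 5xFAD, was above all libraries without the transgenes. Those had 2.58, 2.80, 1.59 and 1.64 CPM in Dp16 and 1.53, 1.03, 0.724 and 2.40 CPM in wild-type. For Tap1 the log2 fold change was 2.33 ± 0.39 in 5xFAD against wild-type (adjusted p = 0.00426), the highest of the called members in that comparison. It was 1.92 ± 0.39 in 5xFAD-Dp16 against wild-type (adjusted p = 0.0412 by edgeR), a call that ended when any 1 of 10 libraries was left out (adjusted p = 0.169 without wild-type replicate 1), and 1.34 ± 0.38 in 5xFAD-Dp16 against Dp16 (adjusted p = 0.272). Wild-type Tap1 rested on 26, 20, 12 and 51 counts, so these folds are less precise than those of B2m.

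Tap2, the partner subunit, had 11.1, 7.25, 8.74 and 9.74 CPM in 5xFAD-Dp16 and 14.6, 9.32, 13.4 and 11.4 CPM in 5xFAD. It had 8.80, 7.52, 6.202 and 3.83 CPM in Dp16 and 8.29, 7.55, 3.68 and 9.63 CPM in wild-type. Its groups overlapped, and its log2 fold change of 0.72 ± 0.29 in 5xFAD against wild-type was not called (adjusted p = 0.536). The ratio of Tap1 to Tap2, in RPKM within a library, was 0.590 to 0.928 in 5xFAD-Dp16, 0.469 to 1.09 in 5xFAD, 0.298 to 0.500 in Dp16 and 0.160 to 0.290 in wild-type. The ranges of this ratio in 5xFAD-Dp16, 5xFAD and Dp16 each lay above that in wild-type, and those of 5xFAD and Dp16 overlapped. Tapbp, which encodes tapasin, had 30.8, 18.6, 23.04 and 31.6 CPM in 5xFAD-Dp16 and 43.1, 23.6, 32.0 and 28.1 CPM in 5xFAD. In Dp16 it had 24.3, 21.7, 14.8 and 14.99 CPM, and in wild-type 27.1, 19.8, 6.70 and 23.5 CPM, where replicate 3 lay far below the others. Its log2 fold change was 0.69 ± 0.34 in 5xFAD against wild-type (adjusted p = 0.727) and was not called.

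Psmb8 and Psmb9 encode inducible catalytic subunits that replace Psmb5 and Psmb6 in the immunoproteasome. Psmb8 stood at 22.3, 16.4, 11.4 and 20.0 CPM in 5xFAD-Dp16 and 18.4, 17.9, 24.1 and 38.5 CPM in 5xFAD. In Dp16 it had 5.21, 9.49, 14.3 and 9.16 CPM, and in wild-type 4.70, 5.32, 10.9 and 7.28 CPM. Both groups with the transgenes lay above the wild-type range, while the 5xFAD-Dp16 and Dp16 ranges overlapped. The log2 fold change was 1.85 ± 0.34 in 5xFAD against wild-type (adjusted p = 0.00795), 1.30 ± 0.33 in 5xFAD-Dp16 against wild-type (adjusted p = 0.141) and 0.88 ± 0.33 in 5xFAD-Dp16 against Dp16 (adjusted p = 0.788 by edgeR).

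Psmb9 had 8.43, 6.53, 3.96 and 7.11 CPM in 5xFAD-Dp16 and 8.67, 7.69, 7.81 and 18.6 CPM in 5xFAD. Its levels were 3.15, 3.13, 5.41 and 3.51 CPM in Dp16 and 1.41, 1.71, 6.58 and 3.76 CPM in wild-type. The 5xFAD libraries were above all wild-type ones, of which replicate 3 was the highest. The log2 fold change was 1.70 ± 0.45 in 5xFAD against wild-type (adjusted p = 0.0871) and was not called, but it was without wild-type replicate 3 (adjusted p = 0.00776 by edgeR). Within a library, the RPKM of Psmb8 was 0.0634 ± 0.0202 of that of Psmb5 in 5xFAD-Dp16, 0.0909 ± 0.0234 in 5xFAD, 0.0268 ± 0.0063 in Dp16 and 0.0218 ± 0.0052 in wild-type (SD, n = 4 each). The ratio of Psmb9 to Psmb6 was 0.0168 ± 0.0050 in 5xFAD-Dp16, 0.0273 ± 0.0092 in 5xFAD, 0.0079 ± 0.0018 in Dp16 and 0.0066 ± 0.0028 in wild-type. In both ratios the libraries with the transgenes lay above those without them. The ratio of Psmb10, the remaining inducible subunit, to its counterpart Psmb7 was 0.329 ± 0.013 in 5xFAD-Dp16, 0.358 ± 0.027 in 5xFAD, 0.3302 ± 0.027 in Dp16 and 0.328 ± 0.034 in wild-type, with overlapping ranges. Transcripts of the constitutive subunits Psmb5 and Psmb6 thus remained far more abundant per length than those of Psmb8 and Psmb9 in every library.

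**Figure D2:**
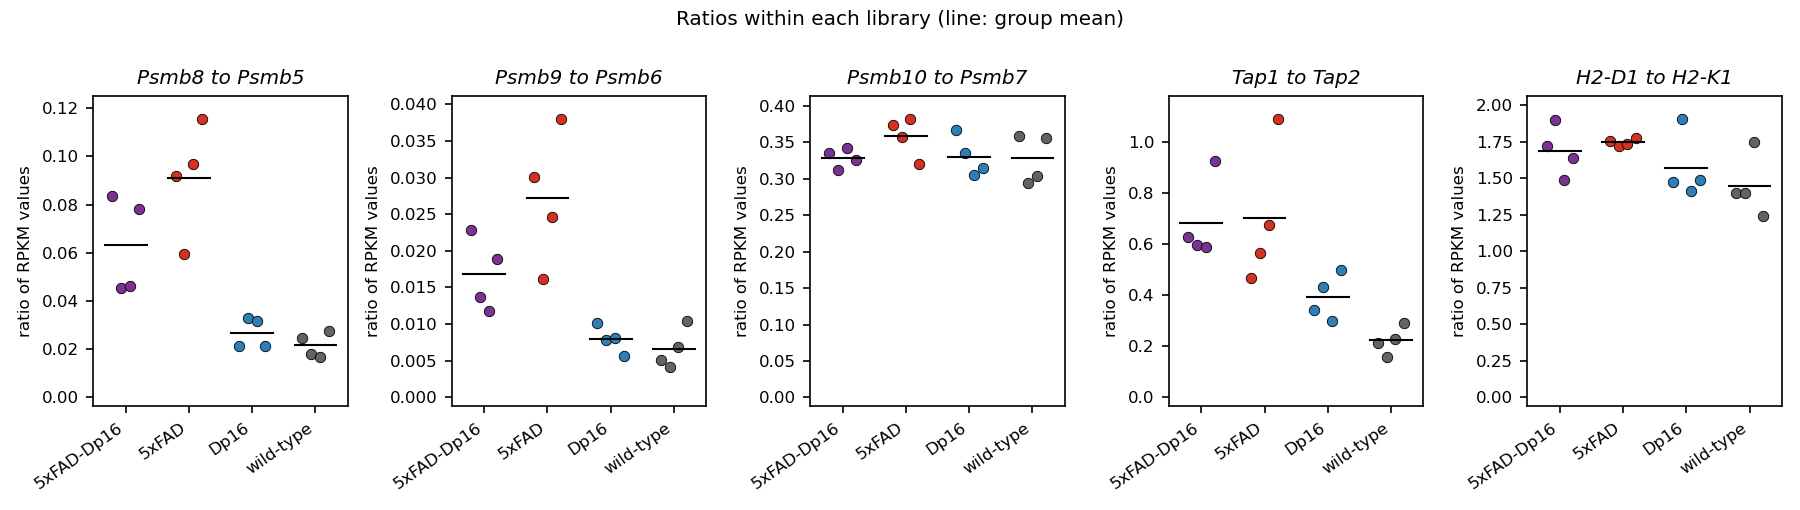
Ratio of the RPKM values of 2 genes within each library (vertical axes, from 0), by genotype (horizontal axis), with a point per library and a line at the group mean. The Psmb8 to Psmb5 ratio averaged 0.0909 in 5xFAD and 0.0218 in wild-type, and the Tap1 to Tap2 ratio reached 1.09 in a 5xFAD library, while the Psmb10 to Psmb7 ratio was 0.295 to 0.383 in all libraries.

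Nlrc5, the class I transactivator, was the least abundant member per transcript length. It was counted 21, 13, 13 and 42 times in the 5xFAD-Dp16 libraries and 64, 14, 14 and 87 times in 5xFAD. The Dp16 libraries had 5, 12, 8 and 0 counts and the wild-type libraries 4, 4, 8 and 7 counts. In CPM the libraries with the transgenes lay above those without them, but the nearest were 5xFAD-Dp16 replicate 2 with 13 counts (0.582 CPM) and Dp16 replicate 2 with 12 counts (0.578 CPM). In RPKM this pair overlapped, at 0.0713 in the 5xFAD-Dp16 library and 0.0727 in the Dp16 library. Within 5xFAD, replicates 1 and 4 stood far above replicates 2 and 3. Nlrc5 had a log2 fold change of 2.77 ± 0.76 in 5xFAD against wild-type (adjusted p = 0.113), the highest of the 10 members but with the widest error, 1.66 ± 0.76 in 5xFAD-Dp16 against wild-type and 1.86 ± 0.75 in 5xFAD-Dp16 against Dp16. None of these was called by edgeR, but the first was without 5xFAD replicate 3 (adjusted p = 0.0477).

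Over the genes as a set, 7 of the 10 members had 5xFAD libraries that were all above the wild-type libraries, as did 3.67% of all genes tested. For 5xFAD-Dp16 against wild-type this held for 6 members and 2.34% of all genes, and for 5xFAD-Dp16 against Dp16 for 5 members and 2.21% of all genes. When the effect of the transgenes was averaged over mice with and without the duplication (8 libraries against 8), 6 members were called higher, against 2.18% of all genes, and 5 did not overlap in CPM, against 0.826%. One of the 5 is Nlrc5, which overlapped in RPKM. In this average, log2 fold changes were 1.33 ± 0.11 for B2m (adjusted p = 4.42e-06), 1.61 ± 0.17 for H2-D1 (adjusted p = 5.02e-05), 1.39 ± 0.20 for H2-K1 (adjusted p = 0.000592) and 1.83 ± 0.27 for Tap1 (adjusted p = 0.000873). Psmb8 at 1.36 ± 0.24 (adjusted p = 0.00318) and Nlrc5 at 2.31 ± 0.54 (adjusted p = 0.0303 by edgeR) were also called. The Nlrc5 call ended when any 1 of 7 libraries was left out (adjusted p = 0.101 without 5xFAD-Dp16 replicate 4). Psmb9 at 1.24 ± 0.31 (adjusted p = 0.0519) missed the threshold and was called without wild-type replicate 3 (adjusted p = 0.00351) or 5xFAD-Dp16 replicate 3 (adjusted p = 0.0488). H2-T23, Tap2 and Tapbp, at 0.52 to 0.60, were not called (adjusted p = 0.166 to 0.501).

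**Figure D3:**
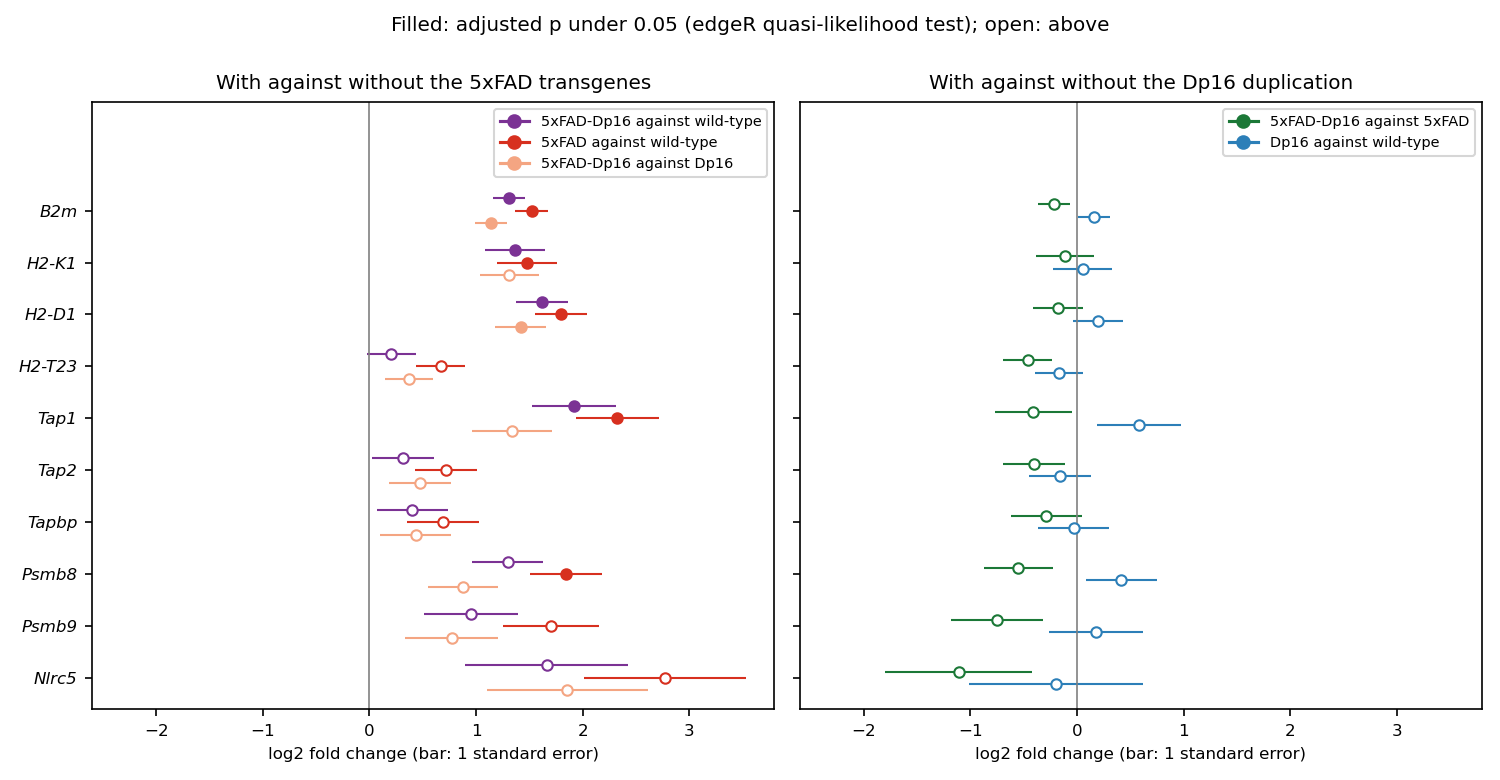
Log2 fold change of each gene (horizontal axis) with 1 standard error on each side, for the comparisons with against without the 5xFAD transgenes (left) and with against without the Dp16 duplication (right). Filled points were called and open points were not. B2m and H2-D1 are filled in all 3 comparisons on the left, and no point on the right is filled.

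The slope of expression on gene length was also added as a covariate, fitted for each gene. Whether this removes the difference in length dependence between the libraries was not tested. In that fit all 10 members were called higher in 5xFAD against wild-type (3.99% of all genes). The same fit called 5 members in 5xFAD-Dp16 against wild-type (1.95% of all genes), 4 in 5xFAD-Dp16 against Dp16 (1.2% of all genes) and 10 in the averaged effect (4.63% of all genes). In 5xFAD against wild-type the estimates moved little and the errors shrank. Some estimates moved more in 5xFAD-Dp16 against Dp16, where Tapbp went from 0.435 to 0.241 and Psmb8 from 0.88 to 1.07 on the log2 scale. Tapbp had a log2 fold change of 0.79 ± 0.14 in 5xFAD against wild-type (adjusted p = 0.000967) in place of 0.69 ± 0.34. Tap2 had 0.75 ± 0.18 (adjusted p = 0.0112) and H2-T23 0.71 ± 0.19 (adjusted p = 0.0422). Psmb9 had 1.84 ± 0.32 (adjusted p = 0.0012) and Nlrc5 2.78 ± 0.71 (adjusted p = 0.023, all by edgeR). In wild-type replicate 3, the library of lowest slope, Tapbp was counted 111 times against 383 to 501 in the other wild-type libraries and Tap2 61 times against 141 to 205. In the same library Psmb8 was counted 180 times against 80 to 155 and Psmb9 109 times against 24 to 80. What sets the length slope of a library was not tested.

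The Dp16 duplication was not accompanied by a called change in any member. In Dp16 against wild-type mice 0 of 10 were called (0.0057% of all genes, 1 gene), 0 had an unadjusted p under 0.05, and DESeq2 and limma-trend also called 0. Log2 fold changes ran from -0.19 ± 0.81 (Nlrc5) to 0.58 ± 0.39 (Tap1), with 6 above 0 and 4 below and a median of 0.11. B2m, the most precisely measured member, had 0.16 ± 0.15. For 10 genes of the duplicated segment that served to check the labels, the median log2 fold change in this comparison was 0.58. All 10 had an unadjusted p under 0.05 by edgeR, yet 0 were called. The lack of called members thus does not show that a change of this size is absent. In 5xFAD-Dp16 against 5xFAD mice 0 members were called as well (0.0057% of all genes, 1 gene), 0 had an unadjusted p under 0.05, and DESeq2 and limma-trend called 0. Here all 10 estimates were below 0, as were 49.15% of those of all genes. Those of the members ran from -0.11 ± 0.27 (H2-K1) to -1.11 ± 0.69 (Nlrc5), with a median of -0.41 beside 0.00 for all genes. The members were measured in the same libraries, so their signs are not independent. B2m had -0.22 ± 0.15, Psmb8 -0.55 ± 0.33 and Psmb9 -0.75 ± 0.43, and the ranges of the groups overlapped for each member. The pan-myeloid markers in the same comparison had a median of -0.54, with 16 of 16 below 0, 12 of them at an unadjusted p under 0.05 and 0 called.

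The interaction, which is the 5xFAD effect in mice with the duplication minus that in mice without it, called 0 members (0% of all genes). At an unadjusted p under 0.05 stood 0 members, and DESeq2 and limma-trend called 0 too. All 10 estimates were below 0, with a median of -0.38, as were 42.9% of those of all genes. The pan-myeloid markers had 16 of 16 below 0 and a median of -0.43 in the interaction, and their part in the members' values was not tested. The members' estimates ran from -0.16 ± 0.39 (H2-K1) to -0.99 ± 0.53 (Tap1). The errors were large beside the estimates, with B2m at -0.38 ± 0.21 and Psmb8 at -0.96 ± 0.46. A difference of the 5xFAD effect between mice with and without the duplication was therefore not detectable at this sample size, which does not show that it is absent.

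In the 5xFAD-Dp16 group, both females were above both males for all 10 members, as for 16.4% of all genes. B2m was 389 and 428 CPM in females and 245 and 256 CPM in males, and H2-D1 was 182 and 192 CPM in females and 91.8 and 106 CPM in males. The same order held for 3 members in 5xFAD (B2m, Tap2 and Tapbp; 29.3% of all genes), 3 in Dp16 (B2m, Psmb8 and Nlrc5; 9.43% of all genes) and 1 in wild-type (B2m; 7.01% of all genes). Within 5xFAD, male replicate 2 had the lowest level of 9 members while male replicate 4 had the highest of 5. The pan-myeloid markers in 5xFAD-Dp16 summed to 2330 and 2788 CPM in females and 1327 and 1655 in males. Choroid plexus and ependyma markers summed to 847 and 2416 CPM in those females and 20.9 and 43.5 in those males. In Dp16 these choroid markers had the reverse order, at 31.4 and 26.8 CPM in females and 1052 and 1292 in males. In 5xFAD they stood at 36.0 and 28.5 CPM in females and 52.5 and 666 in males, the last in replicate 4. In wild-type they stood at 335 and 57.8 CPM in females and 256 and 23.3 in males. The part of either marker list in the order of the members was not tested. The difference of the 5xFAD effect between females and males called 0 members (0% of all genes). At an unadjusted p under 0.05 stood 1 member, H2-K1 at 0.80 ± 0.34 on the log2 scale (adjusted p = 0.634), and DESeq2 and limma-trend called 0. Without wild-type replicate 1, H2-K1 (adjusted p = 0.0459) and Tapbp (adjusted p = 0.0380 by edgeR) were called in this difference, in a fit that called 18.7% of all genes.

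Per kilobase of transcript, the members spanned a wide range of abundance. B2m averaged 393 ± 116 RPKM in 5xFAD-Dp16, 443 ± 86.8 in 5xFAD, 169 ± 24.98 in Dp16 and 148 ± 17.4 in wild-type (SD, n = 4 each), and in each group its range lay above that of every other member. H2-D1 averaged 64.9 ± 24.3 RPKM in 5xFAD-Dp16, 70.9 ± 19.6 in 5xFAD, 22.9 ± 4.25 in Dp16 and 19.5 ± 4.47 in wild-type. In wild-type mice H2-T23 (20.1 ± 4.37 RPKM), H2-D1 and H2-K1 (13.95 ± 4.86 RPKM) were next to each other with overlapping ranges, and in 5xFAD mice the order was H2-D1, H2-K1 (40.5 ± 10.9 RPKM) and H2-T23 (33.4 ± 11.97 RPKM), again overlapping. Psmb8, Tapbp and Psmb9 followed with overlapping ranges in all groups. Tap1 at 0.480 ± 0.266 RPKM in wild-type lay below Tap2 at 2.11 ± 0.838 RPKM without overlap, whereas in 5xFAD Tap1 at 2.48 ± 0.947 RPKM overlapped Tap2 at 3.57 ± 0.720 RPKM. Nlrc5 was last in each group, at 0.135 ± 0.0898 RPKM in 5xFAD-Dp16, 0.257 ± 0.209 in 5xFAD, 0.0366 ± 0.0306 in Dp16 and 0.0369 ± 0.0115 in wild-type, without overlap with Tap1.

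Other genes of the pathway were read from lists defined by role. Of 12 further class I heavy chain genes tested, 2 were called higher in 5xFAD against wild-type: H2-T24 at 1.78 ± 0.29 (adjusted p = 0.00338) and H2-Q7 at 2.40 ± 0.48 on the log2 scale (adjusted p = 0.0158). H2-T24 averaged 5.62 ± 1.40 CPM in 5xFAD and 1.60 ± 0.51 CPM in wild-type, and H2-Q7 5.14 ± 2.73 and 1.07 ± 0.33 CPM in the same groups (SD, n = 4 each). These nonclassical genes have close copies, so their counts are uncertain. Of the same 12 heavy chain genes, 0 were called in 5xFAD-Dp16 against wild-type (0.496% of all genes called higher). In 5xFAD-Dp16 against Dp16 1 was called higher (0.387% of all genes), and in the averaged effect 5 were (2.18%). The 3 other interferon-inducible proteasome genes (Psmb10 and the activator subunits Psme1 and Psme2) had 0 called in 5xFAD against wild-type and 0 with an unadjusted p under 0.05, at a median log2 fold change of 0.04, and the 4 constitutive counterparts had 0 called and a median of -0.30. Of 12 other loading and trimming genes 0 were called and 2 had an unadjusted p under 0.05. One of these was Erap1, the peptidase that trims peptides in the endoplasmic reticulum, at 0.85 ± 0.25 (adjusted p = 0.151 by edgeR). The list of 5 tested class I-like molecules that pair with B2m or share the fold had 0 called and 1 at an unadjusted p under 0.05, Procr, the endothelial protein C receptor, at 1.36 ± 0.41 (adjusted p = 0.169). Of the receptors of class I, 2 of 12 had enough counts to be tested (Pirb and Lilra5), and 0 were called.

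The regulators of the pathway had 6 of 23 tested genes called higher in 5xFAD against wild-type and 0 lower. Among them were the interferon regulatory factors Irf8 at 2.05 ± 0.26 (adjusted p = 0.000515), Irf9 at 1.53 ± 0.21 (adjusted p = 0.000927), Irf7 at 2.04 ± 0.30 (adjusted p = 0.00144) and Irf1 at 1.00 ± 0.21 (adjusted p = 0.0218), and the interferon signal transducer Stat2 at 0.80 ± 0.18 on the log2 scale (adjusted p = 0.0364 by edgeR). Irf1 and Stat2 were named after their values were seen, as were Ifnar1 and Ifnar2 below. Irf7 stood at 9.41 ± 3.796 CPM in 5xFAD-Dp16, 11.9 ± 5.48 in 5xFAD and 2.78 ± 0.31 in wild-type. In 5xFAD-Dp16 against wild-type 5 regulators were called, among them Ifnar1 at 0.76 ± 0.14 and Ifnar2 at 1.05 ± 0.19 (adjusted p = 0.0165 and 0.0150), interferon receptor genes that lie on the duplicated segment. In 5xFAD-Dp16 against Dp16 mice, where both groups carry the duplication, 1 was called, Irf8 at 1.53 ± 0.25 (adjusted p = 0.0121).

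Of 16 microglial and pan-myeloid markers, 13 were called higher in 5xFAD against wild-type, with a median log2 fold change of 1.67 beside 1.61 for the members. Their summed level was 1327 to 2788 CPM in 5xFAD-Dp16, 2614 to 3591 in 5xFAD, 784 to 912 in Dp16 and 822 to 974 in wild-type, and 0 of the 16 were at 0. C1qc, a complement subunit made by microglia, was at 261 ± 42.4 CPM in 5xFAD and 70.2 ± 6.48 CPM in wild-type. On a log2 scale, B2m minus the mean of these markers was 2.17 ± 0.07 in 5xFAD-Dp16, 1.79 ± 0.25 in 5xFAD, 2.14 ± 0.28 in Dp16 and 1.87 ± 0.18 in wild-type (SD, n = 4 each). For H2-D1 this difference was 0.93 ± 0.17 in 5xFAD-Dp16, 0.51 ± 0.43 in 5xFAD, 0.65 ± 0.31 in Dp16 and 0.31 ± 0.23 in wild-type. H2-T23 was -1.01 ± 0.34 in 5xFAD-Dp16, -1.21 ± 0.62 in 5xFAD, -0.27 ± 0.21 in Dp16 and -0.25 ± 0.42 in wild-type. For all 3 genes the ranges of this difference overlapped between 5xFAD and wild-type. Between 5xFAD-Dp16 and wild-type they did not: B2m was 2.103 to 2.249 in 5xFAD-Dp16 and 1.633 to 2.064 in wild-type, and H2-D1 was 0.83 to 1.18 and 0.00 to 0.52 in these groups, both higher in 5xFAD-Dp16. H2-T23 was lower, at -1.36 to -0.68 in 5xFAD-Dp16 and -0.63 to 0.15 in wild-type. For every other member the 5xFAD-Dp16 and wild-type ranges overlapped, as for H2-K1 at -0.525 to 0.021 and -1.245 to -0.238. The share of all genes without such an overlap was not computed, so the lack of overlap cannot be read as particular to these members. The part of myeloid cell number in the members' levels was not tested.

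**Figure D4:**
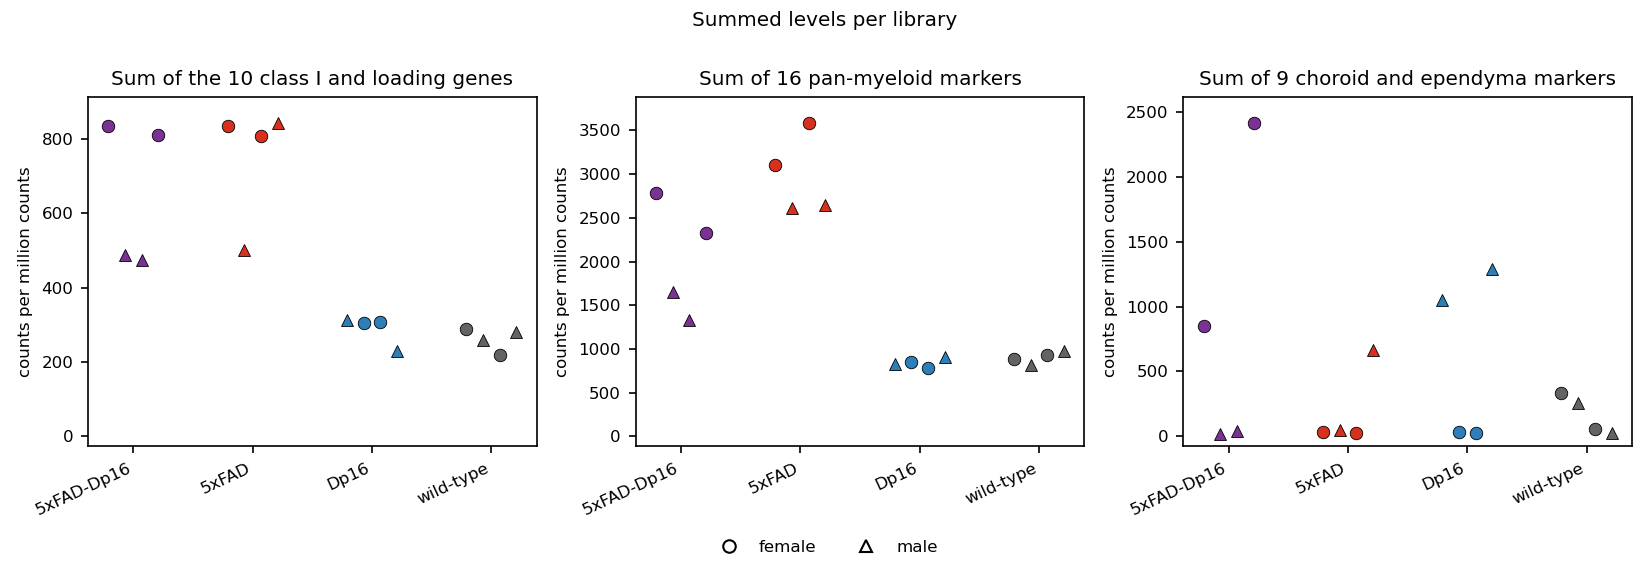
Summed CPM, by library total alone, of the 10 class I and loading genes, of 16 microglial and pan-myeloid markers and of 9 choroid plexus and ependyma markers (vertical axes) in each library, by genotype (horizontal axis), with circles for females and triangles for males. The member sum was 474 to 844 in the libraries with the transgenes and 218 to 313 in those without, and the myeloid sum was 1327 to 3591 and 784 to 974 in the same libraries.

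T cells and cytotoxic cells read class I molecules. Of 18 of their marker genes 5 had enough counts to be tested, and 0 were called in 5xFAD against wild-type, with 1 at an unadjusted p under 0.05. That gene was Ccl5, a chemokine also made by other cells, at 0.7999 ± 0.203 CPM in 5xFAD and 0.122 ± 0.112 CPM in wild-type, with a log2 fold change of 2.68 ± 0.69 (adjusted p = 0.0779 by edgeR). Of the 5 tested markers, 2 had log2 fold changes above 0 in this comparison and 3 below, with a median of -0.15. In the effect averaged over Dp16 status 1 of the 5 was called higher, against 2.18% of all genes. The summed level of the 18 was 35.5 to 49.0 CPM in 5xFAD-Dp16, 28.0 to 40.5 in 5xFAD, 37.8 to 39.3 in Dp16 and 34.96 to 48.1 in wild-type. Of the 18, 3 had no count in any Dp16 library (Gzmb, Prf1 and Ifng) and 2 had none in any wild-type library (Prf1 and Ifng). In 5xFAD-Dp16 and in 5xFAD 0 of the 18 were without a count. The share of all genes with this pattern was not computed, and the summed levels of the 18 overlapped between the groups. Of 9 astrocyte markers 2 were called higher in 5xFAD against wild-type, Gfap at 3.04 ± 0.26 (adjusted p = 5.01e-05) and Aqp4 at 0.70 ± 0.17 (adjusted p = 0.0459). The neutrophil and monocyte list had 1 of 4 called, Csf3r at 1.95 ± 0.30 (adjusted p = 0.00204), a receptor gene that microglia also express. The lists for B cells, border macrophages, oligodendrocytes, endothelial cells, mural cells, neurons and choroid plexus had 0 called in this comparison by edgeR. At an unadjusted p under 0.05 stood 1 B cell marker, 2 neuron markers and 0 genes of the other 5 lists. Of the 9 neuron markers 8 had log2 fold changes below 0, with a median of -0.33 beside -0.05 for all genes.

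The genes most like each member over the 16 libraries were found by the root-mean-square difference of log2 CPM, each gene centred on its wild-type mean, among 12658 genes. B2m was nearest to Irf9 (0.239), Slc14a1 (0.254) and Cyth4 (0.277), and its nearest member was H2-K1 (0.266). H2-K1 was nearest to Slc14a1 (0.255) and, among members, to H2-D1 (0.237), and H2-D1 to Ctss (0.308) and Irf7 (0.310). Psmb8 and Psmb9 were 0.304 apart, closer to each other than to Cyba, the nearest other gene of each (0.322 and 0.3998). Tap1 was nearest to C3ar1 (0.391) and, among members, to H2-D1 (0.480). Tap2 was nearest to Gpam (0.152), Tapbp to Ppfia4 (0.154) and H2-T23 to Xaf1 (0.215), and Tap2 and Tapbp were each other's nearest member (0.264). Nlrc5 had no gene closer than Usp18 (0.701). The median difference over all genes was 1.09 for B2m, 1.30 for H2-D1 and 0.571 for H2-T23, so a small difference counts for less in the members that moved least.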

How the data were processed

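Polyadenylated RNA of whole cortex from 16 mice was sequenced as strand-specific paired-end libraries, per the labels' protocols. Per the submitters' processing notes, the tools were HTSeq 0.6.1 and HISAT2 2.1.0, with SAMtools 1.5, FastQC 0.11.5 and bcl2fastq, and the build was GRCm38. The strand setting and the treatment of multi-mapped reads in counting are not given in the sources used here. The authors deposited raw counts per gene and RPKM values in the same table, and the RPKM values were these counts rescaled by library size and gene length. Library totals were 16874481 to 22912168 counts.

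Counts were tested in R 4.3.3 with edgeR 4.0.16 (TMM scaling, filterByExpr with a minimum count of 10, robust quasi-likelihood fit over all 16 libraries with group and sex), and p-values were adjusted by the Benjamini-Hochberg method over 17555 genes, with a threshold of 0.05. CPM values are TMM-normalized, and errors of fold changes are log2 fold changes divided by the root of F. RPKM served for levels between genes, for ratios and for an alternative test with limma 3.58.1 on log2(RPKM + 0.1) or log2(RPKM + 1). The counts were also fitted with a replicate block, without the sex term, in only the groups compared, without the low-count filter, with RLE size factors and with DESeq2 1.42.0. Further alternatives were the length slope as a covariate, leaving out the 3 libraries of lowest slope, and leaving out each library in turn. The length slope of a library is that of log2 CPM, minus the gene's mean, against log2 gene length among protein-coding genes. The fits were tested on simulated data.

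The 10 members and all gene lists were chosen with earlier results of these data known. The text names all members, up to 4 genes of each list with the smallest p among those called in 5xFAD against wild-type (up to 2 where none was called), and the genes nearest to a member, which had to average a log2 CPM of 1 or more. One gene that this rule names is not reported here. Replicates differed by more than sampling noise in every group (chi-square per degree of freedom 15.8 to 271).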

Additional observations from a re-analysis of the deposited data

Results flagged for a closer look

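In 40 groups of 4 libraries, 3 held a library far from the other 3, and chance gives such a gap in about 1 in 20 groups. H2-D1 stood at 38.96 CPM in Dp16 replicate 4, below the 55.03 to 58.25 CPM of the other Dp16 libraries. Psmb9 stood at 18.57 CPM in 5xFAD replicate 4, above 7.693 to 8.669 CPM in the other 5xFAD libraries. Psmb9 stood at 5.408 CPM in Dp16 replicate 3, above 3.132 to 3.509 CPM in the other Dp16 libraries. The gap was 0.833, 0.910 and 0.835 of the range of the group.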

How the results depend on the processing

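The B2m and H2-D1 calls in 5xFAD against wild-type held under every alternative run. Fitting only the 2 groups compared called 0 members in 5xFAD-Dp16 against wild-type (4 in the fit of all libraries) and 2 in 5xFAD against wild-type (5), with fewer libraries behind the spread. Limma-trend on log2(RPKM + 1) called 2 in 5xFAD-Dp16 against wild-type. Adding the length slope to the fit gave 10 called members in 5xFAD against wild-type, 10 in the averaged effect and 4 in 5xFAD-Dp16 against Dp16 (2). In this last comparison DESeq2 called 4, no low-count filter 5 and the fit without the 3 libraries of lowest slope 1. Leaving out 1 library gave 2 to 4 members in 5xFAD-Dp16 against wild-type (0.217% to 0.587% of all genes higher), 1 to 3 in 5xFAD-Dp16 against Dp16 (0.123% to 0.71%) and 0 to 2 in the sex difference, where the 2 came without wild-type replicate 1, in a fit that called 18.7% of all genes. Over all genes, 5xFAD against wild-type called 266 genes, 470 by DESeq2, 926 with the length slope, 426 without the low-count filter and 115 from the 2 groups alone. 5xFAD-Dp16 against wild-type called 88, and 228, 358, 258 and 9 in the same order. 5xFAD-Dp16 against Dp16 called 68, and 179, 212, 236 and 44.

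The replicate numbers were not treated as pairing the samples, since only 9 of 24 same-numbered pairs of libraries had deviations that correlated above 0.1 (range -0.354 to 0.514). With the replicate block, 5 members were called in 5xFAD against wild-type (1.35% of all genes), 4 in 5xFAD-Dp16 against wild-type (0.41%), 3 in 5xFAD-Dp16 against Dp16 (0.342%) and 5 in the averaged effect (2.2%).

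Signs turned only for members that were not called. In Dp16 against wild-type, log2 fold changes turned for H2-K1 (-0.071) and Nlrc5 (0.459) without the 3 libraries of lowest slope. Tapbp turned to 0.027 with the replicate block, 0.14 and 0.091 with limma-trend (pseudocounts 0.1 and 1) and 0.243 with the length slope. In the sex difference, H2-T23 turned to 0.059 and 0.056 with limma-trend, 0.12 with the length slope and 0.167 without the 3 libraries. Tap1 turned to -0.084 with the replicate block, Psmb8 to 0.053 and Psmb9 to 0.249 with the length slope, Psmb9 to 0.417 without the 3 libraries and Nlrc5 to 0.009 with limma-trend (pseudocount 1). Leaving out 1 library gave ranges across 0. In Dp16 against wild-type these were -0.144 to 0.332 for H2-K1, -0.422 to 0.052 for Tap2, -0.34 to 0.157 for Tapbp, -0.096 to 0.736 for Psmb9 and -0.558 to 0.222 for Nlrc5. In 5xFAD-Dp16 against 5xFAD, H2-K1 ran from -0.273 to 0.028. In the interaction, the ranges were -0.461 to 0.023 for H2-K1, -0.463 to 0.019 for Tap2, -0.445 to 0.052 for Tapbp and -1.324 to 0.03 for Nlrc5. In the sex difference they were -0.322 to 0.238 for H2-T23, -0.839 to 0.246 for Psmb9 and -2.879 to 0.117 for Nlrc5. The cause of these changes was not tested. Of the members' log2 fold changes under other alternatives than leaving out a library, 692 kept their sign and side of the threshold, 38 gained a call, 14 lost one and 15 turned sign. Low counts limit Nlrc5 (0 to 87 counts a library) and Tap1 (12 to 244).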
